A study of Mus musculus with 6 samples.

Results

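The core hepatocyte transcription factors around HNF4 alpha are described here, through the 16 probe sets whose only platform gene symbol is Hnf4a, Hnf4g, Foxa1, Foxa2, Foxa3, Onecut1, Prox1 or Creb3l3, out of 45037 probe sets tested on each array. All 8 genes had at least 1 such probe set, with 4 for Hnf4a, 3 each for Hnf4g and Prox1, 2 for Onecut1 and 1 for each of the others, and 0 probe sets named a member together with another gene. The study asked how fetal livers (E18.5) differ when they are meant to lack HNF4 alpha. The 3 null livers carried the AlfpCre transgene and 2 loxP-flanked Hnf4 alleles (the strain HNF4LoxP/LoxP AlfpCre), and the 3 control livers carried the same transgene with 1 loxP-flanked and 1 wild-type allele (HNF4LoxP/+AlfpCre). Controls therefore also hold Cre and could lose 1 allele. AlfpCre places Cre recombinase under albumin and alpha-fetoprotein regulatory sequences, which act in the hepatocyte lineage, while the RNA came from whole livers that also hold blood-forming, endothelial and mesenchymal cells. Arrays are called by the group and number of their titles, Null_61, Null_1191 and Null_1195, and Control_8, Control_1192 and Control_1193.

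Hepatocyte identity is held by a small network of DNA-binding proteins that occupy each other's promoters and, together, the promoters of genes for plasma proteins and metabolic enzymes. HNF4 alpha and its relative HNF4 gamma are nuclear receptors that bind as dimers to direct repeats. FOXA1, FOXA2 and FOXA3 are forkhead proteins that can bind their sites in closed chromatin. ONECUT1, also named HNF6, acts in early liver and bile duct formation, PROX1 is a homeodomain protein of migrating hepatoblasts and lymphatic endothelium, and CREB3L3, also named CREBH, is an endoplasmic reticulum membrane protein whose freed part activates genes of the acute phase and of triglyceride handling.

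Each array gave 1 linear intensity per probe set, and array medians ran from 91.8 to 99.5. Log2 changes are null minus control after values below 0 were set to 0 and a pseudocount of 32 was added, which understates the change of dim probe sets. A probe set was called when limma's adjusted p, over all 45037 probe sets, was under 0.05. Values after ± are SD over 3 arrays. Folds are the log2 changes put back on the linear scale, so they hold the pseudocount too and are not ratios of group means. A fold is given only where both group means reach 99.5, the highest array median. Levels of different probe sets were not set against each other, since each probe set has its own response.

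Of the 16 probe sets, 3 fell and 1 rose, so that 4 were called, beside 7.01% of all probe sets. The 3 that fell were 2 of the 4 Hnf4a probe sets and the Creb3l3 probe set, and the 1 that rose was that of Foxa1. Among all probe sets, 5.55% fell and 1.46% rose. In 5 of the 16 every null lay below every control, against 13.8% of all probe sets, and in 2 every null lay above every control, against 13.6%. The groups were thus apart in 7 of the 16, against 27.4% of all probe sets, and overlapped in the remaining 9. In whole livers, fewer cells of a type and less RNA per cell cannot be told apart. The median log2 change over the 16 was -0.50, beside 0.03 over all probe sets. The 16 include the 4 probe sets of Hnf4a, the targeted gene, and probe sets of the same gene are not independent. In 5 probe sets both group means lay below 99.5, so that their changes are near the background of the arrays. These were the 3 of Hnf4g, 1 of Onecut1 and 1 of Prox1.

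**Figure D1:**
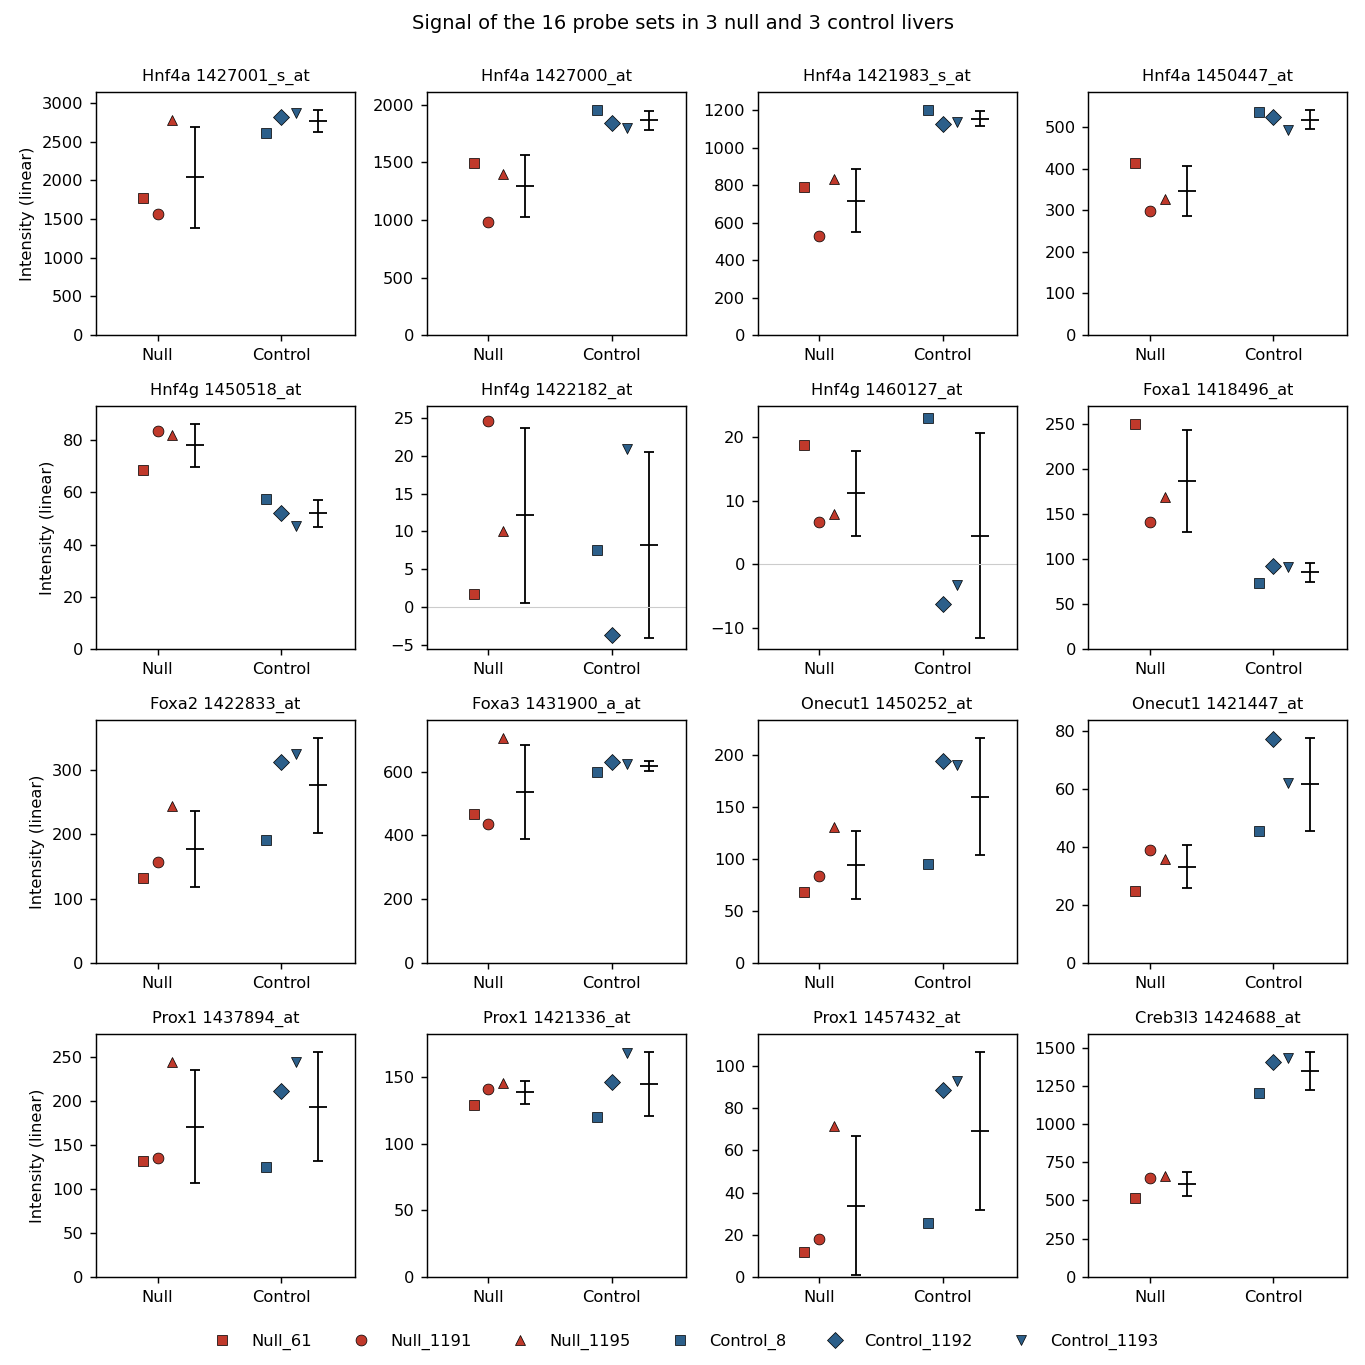
Linear intensity (vertical axes, each with its own scale) of the 16 probe sets in the 3 null and 3 control livers. Symbols mark single arrays, with squares for Null_61 and Control_8, and the black bars give mean and SD over 3 arrays. In 7 panels the groups do not overlap.

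The targeted gene, Hnf4a, was read by 4 probe sets, of which 2 fell, and all 4 kept at least 62.2% of the control mean on average over the nulls. Probe set 1421983_s_at read 793, 527 and 834 in Null_61, Null_1191 and Null_1195, against 1201, 1127 and 1135 in Control_8, Control_1192 and Control_1193. All 3 nulls lay below the controls, and Null_1191 was the lowest at 45.7% of the control mean. The log2 change was -0.69, its standard error 0.17 and its adjusted p 0.0434 (limma), a 1.61-fold fall. Probe set 1450447_at read 414, 297 and 327 in the nulls, against 537, 524 and 492 in the controls, and it fell 1.46-fold (adjusted p = 0.0488). The groups again did not overlap.

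Probe set 1427000_at read 1493, 986 and 1395 in the nulls, against 1954, 1843 and 1796 in the controls. Its groups were apart too, but its log2 change of -0.54 had an adjusted p of 0.0785 and was not called. The remaining probe set, 1427001_s_at, had a different pattern. It read 1778, 1562 and 2778 in the nulls, against 2607, 2817 and 2877 in the controls, so that Null_1195 stood at 100.4% of the control mean while Null_61 and Null_1191 stood at 64.3% and 56.5%. In the other Hnf4a probe sets Null_1195 was between 63.2% and 74.8% of the control mean. The log2 change of 1427001_s_at was -0.48 with a 95% interval from -0.91 to -0.04 (adjusted p = 0.194). Across the 6 arrays, which fall in 2 groups, 1427001_s_at correlated at 0.60, 0.77 and 0.85 with the others, and those correlated at 0.92 to 0.99 among themselves. The mean of the 4 probe sets gave -0.56 (adjusted p = 0.0370, limma). That value is from a separate fit on gene means, adjusted over 18193 genes, so it is not the same test as for single probe sets.

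The sources used here do not place these probe sets inside or outside the loxP-flanked sequence. The signal therefore checks the genotype labels only in part. Both Hnf4a calls were lost when any 1 control or Null_1191 was left out. The adjusted p then lay between 0.0694 and 0.142 for 1421983_s_at and between 0.121 and 0.169 for 1450447_at. The change itself was about as large without any 1 control, from -0.70 to -0.66 for 1421983_s_at and from -0.58 to -0.52 for 1450447_at, and without Null_1191 it was -0.49 and -0.46. Without 1 control, 3.41% to 4.01% of all probe sets fell, against 5.55% with all 6 arrays. Without Null_1195 the call of 1450447_at was also lost (adjusted p = 0.128), and 1427001_s_at was at -0.72 and called (adjusted p = 0.00589).

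Mouse Hnf4a is known to be transcribed from a distal and a proximal promoter, the distal one being used in fetal liver and pancreas and bound by ONECUT1. The 2 annotated starts lie 40298 bases apart in RefSeq's GRCm38.p6 sequence, and each is shown with 250 bases before and 50 from the start on, because Hnf4a is the gene targeted and its distal start is a place where ONECUT1 is known to act. Capitals mark the letters ATCAATAA, a form of the ONECUT motif, read on both strands.
Hnf4a distal start at chr2:163506607-163506906, plus strand: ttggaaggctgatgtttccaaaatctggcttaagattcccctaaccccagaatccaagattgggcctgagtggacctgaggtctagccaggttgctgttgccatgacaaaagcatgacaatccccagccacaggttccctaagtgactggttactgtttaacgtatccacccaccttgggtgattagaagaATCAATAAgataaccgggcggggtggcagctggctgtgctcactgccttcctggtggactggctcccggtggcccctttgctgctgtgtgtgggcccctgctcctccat
Hnf4a proximal start at chr2:163546905-163547204, plus strand: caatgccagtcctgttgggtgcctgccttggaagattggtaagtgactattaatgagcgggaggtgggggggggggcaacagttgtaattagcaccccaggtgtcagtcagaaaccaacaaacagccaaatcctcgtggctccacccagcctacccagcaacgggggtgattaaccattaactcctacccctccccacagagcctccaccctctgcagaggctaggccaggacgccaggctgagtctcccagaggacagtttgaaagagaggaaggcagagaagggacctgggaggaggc
The distal window held the motif, beginning at base 192, and the proximal window did not. Of all 32851 such windows in the RefSeq table, 0.718% held it. A match of letters is a description and not a bound site.

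Hnf4g, the gene of the closest relative, was dim in every liver. HNF4 gamma binds the same kind of DNA site as HNF4 alpha and is known from the intestine and kidney. Probe set 1450518_at read 68.6, 83.6 and 81.8 in the nulls, against 57.4, 52.0 and 47.0 in the controls. All nulls lay above all controls, yet the log2 change of 0.39 (95% interval 0.10 to 0.67) did not pass the test (adjusted p = 0.115), and all 6 values lay below the array medians. The other probe sets, 1422182_at and 1460127_at, read from 1.78 to 24.6 in the nulls and from -6.18 to 23.0 in the controls. They gave no direction, with log2 changes of 0.09 and 0.16 and adjusted p values of 0.881 and 0.768.

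Of the 3 FOXA genes 1 rose and 0 fell. Foxa1 rose, with 250, 141 and 169 in the nulls, against 73.3, 91.8 and 91.0 in the controls. Every null lay above every control, and Null_61 was the highest. The log2 change was 0.87 with a standard error of 0.19 (adjusted p = 0.0248). All control values were below 99.5, so no fold is given. The call was lost on leaving out Null_1195 or any 1 control (adjusted p from 0.0600 to 0.0943), while the log2 change stayed between 0.79 and 0.91.

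Foxa2, whose protein is needed for foregut and liver formation, read 131, 157 and 244 in the nulls, against 191, 312 and 325 in the controls. The groups overlapped, since Null_1195 read above Control_8. The log2 change was -0.56 with a 95% interval from -1.10 to -0.02, and it did not pass the test (adjusted p = 0.219). Of 16 alternative settings it passed in 1, with the run of title numbers, Null_61 and Control_8 against the other 4 arrays, as a block (0.0344). In that setting 8.19% of all probe sets fell, against 5.55% in the main fit. Foxa3, a FOXA gene of liver and gut, read 466, 435 and 705 in the nulls, against 598, 630 and 624 in the controls. Null_1195 lay above all controls and both other nulls below them. The log2 change of -0.23 had a 95% interval from -0.62 to 0.17 (adjusted p = 0.499).

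The first annotated starts of the FOXA gene that rose and of the one whose signal most resembled Onecut1 are shown from the same RefSeq table. Capitals mark TGTTTAC, a forkhead motif, in Foxa1, and ATCAATAA in Foxa2, both found on the opposite strand.
Foxa1 at chr12:57546062-57546361, minus strand: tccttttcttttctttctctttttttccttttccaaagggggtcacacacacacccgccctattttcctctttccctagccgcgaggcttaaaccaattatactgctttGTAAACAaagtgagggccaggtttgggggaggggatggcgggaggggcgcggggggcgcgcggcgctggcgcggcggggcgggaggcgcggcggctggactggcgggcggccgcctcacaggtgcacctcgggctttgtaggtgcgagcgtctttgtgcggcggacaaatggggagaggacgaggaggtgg
Foxa2 at chr2:148046920-148047219, minus strand: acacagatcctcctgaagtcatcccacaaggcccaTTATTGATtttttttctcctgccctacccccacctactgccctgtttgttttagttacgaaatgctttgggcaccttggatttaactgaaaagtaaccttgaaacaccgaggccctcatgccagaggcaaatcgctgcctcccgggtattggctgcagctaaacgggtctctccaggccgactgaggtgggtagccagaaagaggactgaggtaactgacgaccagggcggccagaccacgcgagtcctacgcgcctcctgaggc
TGTTTAC was in 3.65% of all windows and in 1 of the 12 windows of the factors, that of Foxa1 itself. ATCAATAA was in 2 of the 12, the Foxa2 window shown here and the distal Hnf4a window above. The table had windows for 7 of the 8 genes.

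**Figure D2:**
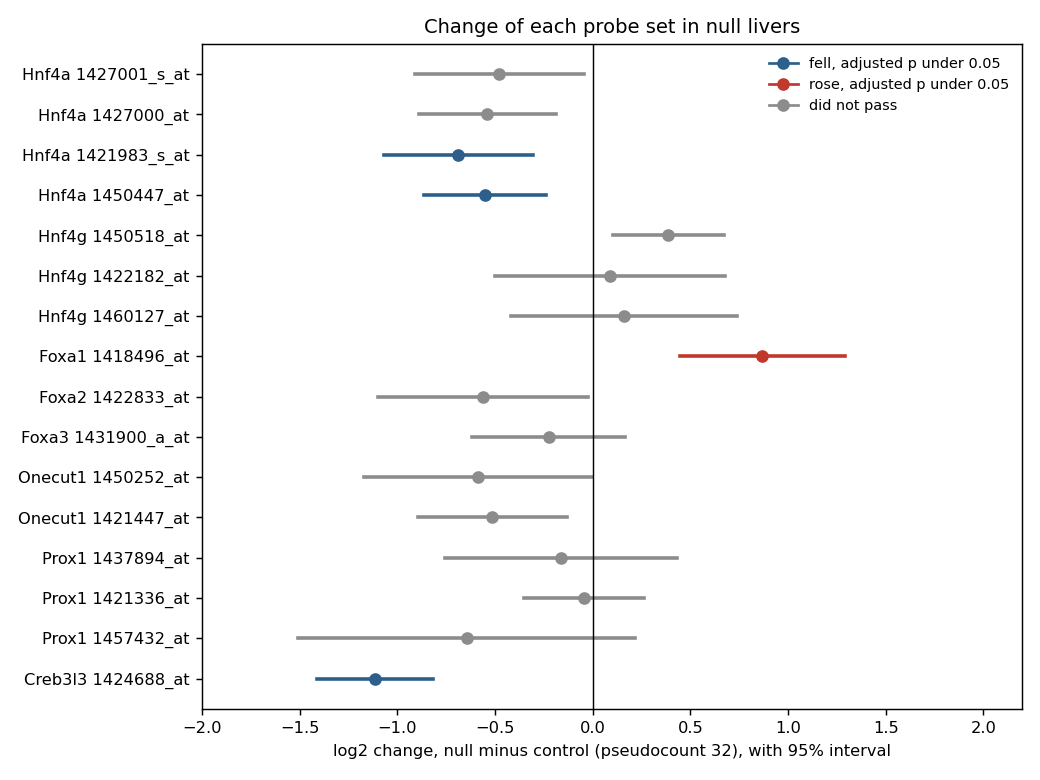
Log2 change, null minus control, of each probe set (points) with its 95% interval from limma (bars), at a pseudocount of 32. Creb3l3 and 2 Hnf4a probe sets lie left of 0 and passed the test, Foxa1 lies right of 0 and passed, and the grey probe sets did not pass.

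Onecut1 had lower means in the nulls in both probe sets. Neither passed the test, but both passed with the run of title numbers as a block (adjusted p = 0.0323 and 0.0324, limma). Over all alternative settings, 1450252_at passed in 2 of 16 and 1421447_at in 1 of 15. Probe set 1450252_at read 68.3, 83.6 and 131 in the nulls, against 95.1, 194 and 191 in the controls. The low control was Control_8 and the high null was Null_1195, and the 2 values overlapped. The log2 change was -0.59 (95% interval -1.17 to -0.0019, adjusted p = 0.234). The dimmer 1421447_at read 24.8, 39.1 and 35.9 in the nulls, against 45.4, 77.4 and 62.2 in the controls. Its groups were apart, with a log2 change of -0.51 and an adjusted p of 0.119.

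Prox1 showed no group difference that passed the test. Probe set 1437894_at read 131, 136 and 245 in the nulls, against 125, 212 and 245 in the controls (adjusted p = 0.772). Probe set 1421336_at read 129, 141 and 146 in the nulls, against 120, 146 and 168 in the controls, with a log2 change of -0.04 and a 95% interval from -0.35 to 0.26. The dim 1457432_at read 11.7, 18.2 and 71.6 in the nulls, against 25.8, 88.7 and 92.8 in the controls. Its log2 change of -0.65 had a wide interval, from -1.51 to 0.22 (adjusted p = 0.372). In all 3 probe sets Control_8 was the lowest control and Null_1195 the highest null.

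Creb3l3 was the clearest change among the 16. It read 517, 644 and 657 in the nulls, against 1205, 1406 and 1431 in the controls. The 2 groups were far apart beside their spread, at 606 ± 77.5 in nulls and 1347 ± 124 in controls (SD, n = 3 each). It fell 2.17-fold, with a log2 change of -1.12, a standard error of 0.13 and an adjusted p of 0.000963 (limma). The call was kept in all 16 alternative settings, with adjusted p values from 3.23e-05 to 0.0102.

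The first annotated start of Creb3l3 is shown because it belongs to the factor with the largest fall. Capitals mark TGTTTGC, a second forkhead form, on the opposite strand.
Creb3l3 at chr10:81098823-81099122, minus strand: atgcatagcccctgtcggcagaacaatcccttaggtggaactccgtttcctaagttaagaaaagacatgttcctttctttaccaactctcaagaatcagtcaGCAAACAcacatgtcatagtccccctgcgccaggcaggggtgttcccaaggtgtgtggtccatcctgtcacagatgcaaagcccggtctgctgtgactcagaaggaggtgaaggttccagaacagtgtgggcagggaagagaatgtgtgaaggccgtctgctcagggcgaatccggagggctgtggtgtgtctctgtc
TGTTTGC was in 5.07% of all windows and in 2 of the 12 windows of the factors, this one and 1 of Prox1. Of 2 HNF4 forms, CAAAGTCCA and CAAAGGTCA, and the cyclic AMP response element TGACGTCA, 0 of the 12 windows held any. This says only that these letters are not in these windows.

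Nearly every gene listed as a direct HNF4 alpha target fell, in a list chosen with earlier results of these data known. Of 20 targets analysed 19 fell and 0 rose, with a median log2 change of -2.54 beside 0.01 over all 18193 genes, of which 7.85% fell and 1.56% rose. F10, for a clotting protease zymogen, read 71.8, 64.6 and 59.3 in the nulls, against 3013, 2732 and 2963 in the controls. F9, for the factor absent in hemophilia B, read 27.8, 23.7 and 29.0 in the nulls, against 594, 683 and 554 in the controls. Apoc2, the activator of lipoprotein lipase, read 293, 247 and 297 in the nulls, against 3529, 3885 and 4810 in the controls. The nulls lay below the controls in each of these, with adjusted p values of 8.35e-08, 8.97e-07 and 1.02e-06. Pklr, the liver and red cell pyruvate kinase gene, was the member not called (641 ± 25.2 in nulls and 669 ± 21.5 in controls, SD, n = 3 each).

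In Null_1195, Hnf4a 1427001_s_at read within the control range, while the other Hnf4a probe sets read 63.2% to 74.8% of the control mean. The median of the 20 targets in Null_1195 was -2.25 against the control mean, beside -2.77 in Null_61 and -2.61 in Null_1191. The number of targets that fell was 17 to 19 over 17 alternatives. The target lists were written from general knowledge, with earlier results of these data known, and share genes with each other. Their counts are therefore descriptions and not tests.

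The HNF4 letters were found near the start of 3 of 16 targets with a window in the RefSeq table, and these are shown, in capitals, with 10 bases on each side. CAAAGTCCA was in 0.475% of all windows and CAAAGGTCA in 0.478%.
Cyp8b1 at chr9:121916354-121916382, minus strand: agcctctgagCAAAGTCCAagggcaggaa
F7 at chr8:13025990-13026018, minus strand: gccgggagggCAAAGGTCAggggggaggg
F9 at chrX:59999446-59999474, plus strand: aatctcctaaCAAAGGTCAtgaagcacct
Cyp8b1, a bile acid synthesis enzyme, read 13.5 ± 17.5 in nulls and 990 ± 88.1 in controls, and F7, for another clotting zymogen, read 62.2 ± 14.7 in nulls and 393 ± 81.5 in controls (SD, n = 3 each). Both fell, with adjusted p values of 4.23e-06 and 0.000108.

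The target lists of the other factors share genes with that of HNF4 alpha. Beside them, 7.85% of all genes fell. Of 8 CREB3L3 targets 4 fell, 1 of them also an HNF4 alpha target, with a median log2 change of -1.86. Apcs, for serum amyloid P, read 268, 321 and 387 in the nulls, against 4496, 5259 and 4202 in the controls, and Crp, for C-reactive protein, fell 4.04-fold. The other 4, Hamp, Apoa4, Cidec and Fgf21, were not called. Hamp and Apoa4 had lower means in nulls, at 974 and 88.6 against 2875 and 224 in controls, with overlapping groups. Their log2 changes were -1.71 and -1.24 (adjusted p = 0.0933 and 0.148, limma). Cidec, dim in both groups, had a log2 change of 0.52 (adjusted p = 0.366). Fgf21, a fasting hormone, was at 53.1 ± 7.50 in nulls and 52.1 ± 13.3 in controls (SD, n = 3 each). Of 6 ONECUT1 targets 5 fell, 4 of them also HNF4 alpha targets, with a median of -1.04. Slc2a2, the glucose transporter of hepatocytes, fell 2.10-fold, and the gene not called was Foxa2. Without Control_1192 or without Control_1193 the number of these that fell was 3.

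Of 7 FOXA targets 5 fell, 3 of them also HNF4 alpha targets, with a median of -0.77. Igfbp1, for an insulin-like growth factor binding protein, read 4480, 5927 and 5394 in the nulls, against 9105, 8705 and 9087 in the controls. Tat, for tyrosine aminotransferase, fell 3.33-fold. Pck1, the gluconeogenic gene, lay at or near background in the nulls, at 0.201, -15.0 and 3.34, against 535, 1262 and 742 in the controls. Afp and Alb, for alpha-fetoprotein and albumin, were at 11463 ± 140 and 10651 ± 460 in nulls and at 11969 ± 36.6 and 10532 ± 270 in controls (SD, n = 3 each). Neither was called, and both read near the top of the arrays' range, whose highest values were 11302 to 12608. Without any 1 control the number of FOXA targets that fell was 3.

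Of 19 partner factors 5 fell, 0 rose and 14 were not called, beside 7.85% of all genes that fell and 1.56% that rose, with a median log2 change of -0.29. Cebpa, a basic leucine zipper factor of differentiation, read 414, 404 and 573 in the nulls, against 1524, 1550 and 1613 in the controls (adjusted p = 0.000120). Nr1i2 and Nr1h4, the pregnane X and bile acid receptors, also fell, as did Nr0b2 and Xbp1. Without Control_1192 the number that fell was 3, and without Null_61 it was 8. Of 7 close relatives of the factors (Onecut2, Onecut3, Prox2, Creb3, Creb3l1, Creb3l2 and Creb3l4) 0 were called, with adjusted p values from 0.478 to 0.989 and a median of 0.05. Their names follow the families only, and 3 of them averaged below 99.5 in both groups.

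**Figure D3:**
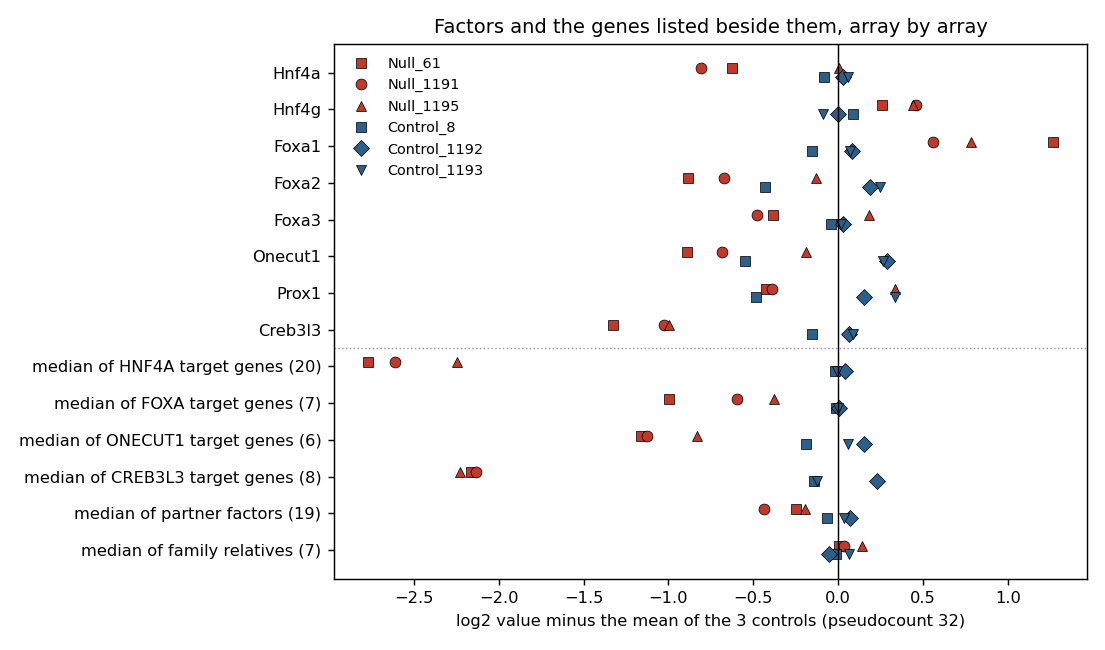
Log2 value of each array minus the mean of the 3 controls (pseudocount 32), for the brightest probe set of each factor (above the dotted line) and for the median of each gene list, with the number of genes in brackets. Red symbols are nulls and blue symbols controls. The HNF4 alpha targets lie between -2.77 and -2.25 in the nulls, while Hnf4a 1427001_s_at, its brightest probe set, lies between -0.81 and 0.01. The other Hnf4a probe sets, not drawn, lie between -1.08 and -0.30 in the nulls.

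Null_61 and Control_8 have far lower title numbers than the other 4 arrays and differed from them at the 5' end of 18S ribosomal RNA. The array's control for that end gave 33.5 in Null_61 and 42.1 in Control_8, while the remaining arrays gave 449 to 616. The control for the 3' end differed less, at 343 in Null_61 and 378 in Control_8 against 400 to 473. The labels do not say what the numbers mark. In 8 of the 11 probe sets with a group mean of 99.5 or more Control_8 was the lowest control. Among the nulls, Null_61 was the lowest in 5 of the 11 and Null_1191 in 6, and Null_1195 was the highest in 8. This order was not counted over all probe sets. With the run as a block, 0 of the 16 probe sets had a called difference between the runs. Of all probe sets, 2.31% were called lower in the low run and 0.615% higher. Null_1195 also had the highest 3' to 5' ratio of the Gapdh control probe sets, at 1.28 against 0.934 to 1.06 on the other arrays, and the highest for actin, at 1.76 against 1.38 to 1.73. The part of these signs of RNA quality in its levels was not tested. Embryo sex, read from X- and Y-linked probe sets, was female in Null_1191, Null_1195 and Control_8 and male in the others. Within each run sex and group therefore cannot be told apart.

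With the run as a block, 7 probe sets fell and 1 rose, beside 8.19% and 4.14% of all probe sets. The added ones were Hnf4a 1427000_at (adjusted p = 0.0251), Foxa2 and both Onecut1 probe sets. In the 4 arrays with high numbers, Foxa2 had a log2 change of -0.62 (adjusted p = 0.0775) and Onecut1 1450252_at one of -0.71 (0.0433). In Null_61 against Control_8, a pair with no test, they were at -0.45 and -0.34. Of the 16 probe sets 12 had the same direction in both runs, the others being 2 of Hnf4g and 2 of Prox1. The Foxa1 difference was 1.42 in the low run and 0.59 in the other (adjusted p = 0.0361), and that of Creb3l3 was -1.17 and -1.09 (adjusted p = 0.000589).

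**Figure D4:**
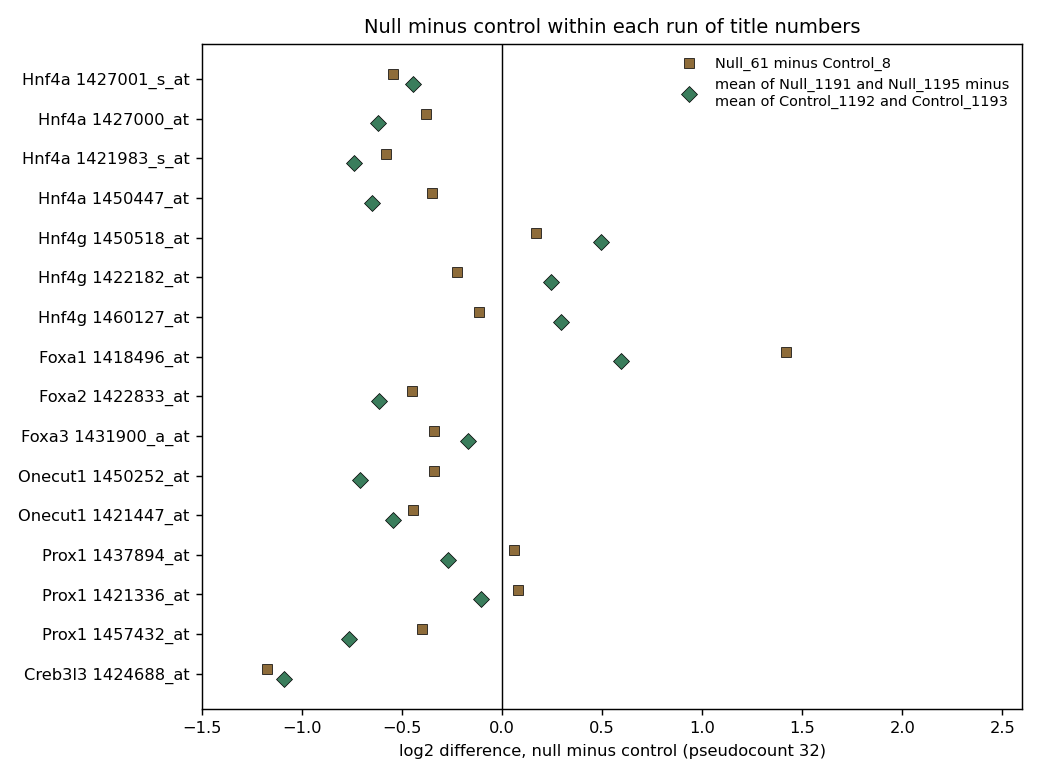
Log2 difference, null minus control (pseudocount 32), of each probe set in Null_61 against Control_8 (squares, 1 pair) and in the means of the other 2 nulls against the other 2 controls (diamonds). The 4 Hnf4a probe sets, Foxa2, Foxa3, Onecut1 and Creb3l3 lie left of 0 in both, and Foxa1 lies right of 0 in both.

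The genes whose brightest probe set followed each factor most closely over the 6 arrays were found among 12360 genes above the median level. These correlations hold 2 groups and 2 number runs and are given as descriptions. Onecut1 was among the 3 closest to Foxa2 (r = 0.99, n = 6 arrays), after Reep3 and Sdhaf4. Reep3 read 150, 205 and 337 in the nulls, against 254, 436 and 493 in the controls, the same order of arrays as Foxa2. The closest to Hnf4a, read on 1427001_s_at alone, were Uqcc1, Tm9sf3 and Phactr4 (r = 0.99 each). Uqcc1 read 103, 93.5 and 151 in the nulls, against 146, 165 and 162 in the controls. Null_1195 lay inside the control range, as in 1427001_s_at, on which the gene was selected. The other Hnf4a probe sets, in which Null_1195 lay below the controls, were not used for likeness.

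The closest to Creb3l3 were H6pd, Slc37a4 and Tmem33, and Slc37a4, for the glucose-6-phosphate transporter, read 206, 296 and 347 in the nulls, against 1127, 1439 and 1588 in the controls. For Foxa1 they were Itgb5, Trim35 and Slc44a3, and for Foxa3 Sycn, Lcor and Kif12. Onecut1 was followed by Pmch, Ccdc80 and Chmp5, Prox1 by Sh3pxd2a, Notch1 and Stt3b, and Hnf4g by Cchcr1, Pip4k2c and Ntn4. All had r of at least 0.979.

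The livers read as liver, with hepatocyte marker signal summed over 5 genes of 44252 to 45842 in nulls and 56025 to 56744 in controls. In controls these genes averaged 10369 to 12408, near the top of the arrays' range, so the sum may understate differences. Of these 5, Fgb, Ttr and Ahsg fell, beside 7.85% of all genes, and Alb and Afp were not called. Without any 1 control 1 of the 5 fell. Of 4 biliary markers, in whose cells Onecut1 and FOXA genes are also expressed, 0 were called, and their sum was 619 to 775 in nulls and 640 to 722 in controls. The sum holds opposite moves. Sox9, with groups apart, and Krt19 had means of 71.1 and 49.8 in nulls against 112 and 71.6 in controls. Epcam and Krt7 had means of 508 and 80.2 in nulls against 431 and 64.2 in controls. Of 3 genes listed as lymphatic endothelial markers, for Prox1, 0 were called, with sums of 672 to 706 in nulls and 864 to 893 in controls. Lyve1 and Flt4 had groups apart, at means of 284 and 208 in nulls against 406 and 264 in controls. Pdpn overlapped, at 196 in nulls and 208 in controls. Whether these genes mark lymphatic cells alone in whole liver was not tested. For the intestinal and pancreatic endoderm list 1 of 5 fell (Fabp2), with sums of 532 to 698 in nulls and 555 to 583 in controls. This sum too holds opposite moves. Cdx1 had every null above every control, at means of 336 in nulls and 205 in controls. Pdx1 had every null below every control, at 25.9 and 43.7. Neither was called, and Cdx2 and Vil1 overlapped.

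Of 4 sinusoidal endothelial genes 2 fell (Stab2 and Kdr), and of 4 megakaryocyte genes 3 fell (Pf4, Gp1bb and Itga2b), beside 7.85% of all genes. Of 5 macrophage genes 3 rose (Timd4, Clec4f and Adgre1), beside 1.56% of all genes. Macrophage sums were 1948 to 3484 in nulls and 1145 to 1515 in controls. They include Marco, which was not called and read 1425 in Null_61, against 417 in Null_1191 and 375 in Null_1195. Without Control_1192 or without Control_1193, 0 macrophage genes rose, and without Null_1191 or without Null_1195, 1 did. Without Control_8, Control_1192 or Null_1191, 0 megakaryocyte genes fell and 1 sinusoidal gene did, as was so for the sinusoidal list without Control_1193. Of 4 erythroid, 5 mesenchymal and 4 neural genes 0 were called. The part of these shifts in the changes of the factors was not tested.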

How the data were processed

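Each of the 6 samples is 1 Affymetrix array of biotin-labelled total RNA from an E18.5 liver, per the labels' protocols. The authors deposited 1 linear intensity for each probe set. Between 0.908% and 1.34% of an array's values are below 0. The sources used here name no software, background step or scaling.

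Of 45101 probe sets 64 controls were left out. The log2 was taken of each value plus 32, with negative values counted as 0. Log2 medians of the arrays spanned 0.0877, less than the 0.2 set as the limit, and no further scaling was done. The test of null against control was that of limma 3.58.1 under R 4.3.3 (lmFit, eBayes with trend, no covariate, two-sided) over 45037 probe sets, with Benjamini-Hochberg adjustment and a threshold of 0.05. The fit was checked on simulated data. An exact permutation test of 3 against 3 cannot go below p = 0.1, so none was run. The labels name no litter, so a p value speaks for the spread of these arrays alone. The array number limits the precision.

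The platform annotation gave 1 symbol to 34945 probe sets, several to 932 and none to 9160. In gene lists and likeness, a gene's brightest probe set stood for it. The files name no genome build, and promoter windows are RefSeq's, with that table's build.

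The factors, lists, motifs and named genes were chosen with earlier results of these data known. All probe sets of the factors are described. Of each list, up to 3 called genes with the smallest adjusted p are named, and others where the text singles them out, chosen after their values were seen. For likeness, the 3 genes with the highest Pearson correlation are named. The alternatives were a fit without trend, array weights, quantile normalization, centring of medians, pseudocounts of 1 and 100, a filter on probe sets dimmer than the median, the number run as a block, the 4 high-numbered arrays alone, embryo sex as a term, the mean of a gene's probe sets, and each array left out.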

Additional observations from a re-analysis of the deposited data

How the results depend on the processing

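Creb3l3 was called lower under all 16 alternatives. The number of factor probe sets that fell, 3 as reported, was 1 with quantile normalization, a pseudocount of 1, no intensity trend or embryo sex as a term, the one left being Creb3l3, and 7 with the number run as a block. Leaving out 1 array gave 1 to 4. The number that rose, 1 as reported, was 2 with array weights, which added Hnf4g 1450518_at (adjusted p = 0.0401), and 0 to 1 on leaving out 1 array. Of 251 values of single probe sets, 215 kept direction and side of the threshold, 23 lost a call, 9 gained one and 4 turned. The 4 were not called either way. Hnf4g 1422182_at ran from -0.11 to 0.28 on leaving out 1 array, and turned without Null_1191 (-0.11) and without Control_1192 (-0.08). Prox1 1437894_at ran from -0.41 to 0.0075 and Prox1 1421336_at from -0.149 to 0.0485, and both turned without Control_1193. The causes were not tested. The number called in the FOXA, ONECUT1, partner, hepatocyte, sinusoidal, megakaryocyte and macrophage lists also moved by over 1.5 times under some settings, with 3 FOXA and 3 ONECUT1 targets lower under quantile normalization or without the trend, 8 partner factors lower with array weights, and 0 macrophage genes higher with embryo sex as a term. Leaving out an array also leaves fewer arrays in the fit. No paired analysis was possible because the titles of the null and control arrays share no number. The number run was a block instead, which sets Null_61 beside Control_8 but pairs no arrays among the other 4, and it added the 4 calls given above and lost none. Dim probe sets near background, those of Hnf4g above all, limit what can be seen.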
